A study of Pleurotus tuoliensis with 2 samples.

Results

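The ubiquitin, SUMO and proteasome system of *Pleurotus tuoliensis* mycelia was represented by 192 of the 17030 assembled unigenes. They are all unigenes whose Swiss-Prot protein name contains ubiquitin, proteasome, SUMO, cullin, F-box or NEDD8, without ribosomal proteins and ubiquinone enzymes, and whose mean FPKM over 6 libraries was above 1. All 192 unigenes with such a name passed this limit. The choice used names and mean levels, not the comparison between the groups, but it was made with earlier results of these data known. Unigenes are transcripts assembled without a genome, and FPKM is the number of fragments scaled by the length of the unigene and by the fragments of the library.

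Mycelia of strain ACCC 50869 were grown in bottles for 37 days at 25 °C in the dark on 820 g of substrate, and 3 bottles were sampled as immature mycelia at day 0 of the following cool phase. After 35 days at 17 °C another 3 bottles were sampled as mature mycelia. No genotype or agent differed between the groups, but age of the culture, temperature and maturity changed together and cannot be told apart. Since every library came from a bottle of its own, replicate error here is the variation among cultures. Levels came from bulk mycelium, where fewer hyphae expressing a gene and less of its RNA per hypha cannot be told apart.

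Ubiquitin is a small protein that is attached to other proteins by an activating enzyme (E1), a conjugating enzyme (E2) and a ligase (E3), and chains of it send a protein to the proteasome. The proteasome consists of a 20S core, which cuts proteins, and a 19S cap, whose ring of ATPases unfolds them. Deubiquitinases remove ubiquitin again, while SUMO and NEDD8 are relatives of ubiquitin with their own enzymes, and NEDD8 switches on the cullin ligases. In fungi this system takes part in the turnover of proteins when nutrients change and in the cell cycle.

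The names were checked against the other annotations of the unigenes. The eggNOG category of protein modification, turnover and chaperones was given to 148 of the 192 members and to 891 of all 16496 tested unigenes. Of 16 tested unigenes with the GO term for threonine-type endopeptidase activity, the activity of the 20S core, 15 were members. It was 23 of 33 for protein deubiquitination, 17 of 41 for protein ubiquitination and 14 of 38 for ubiquitin-protein transferase activity. The choice by name thus left out many unigenes with GO terms of ligases and some with those of deubiquitinases. The members fell on 150 different proteins in the Nr database. Among these, 31 proteins were matched by more than 1 member and carried 73 members together, and 21 of the 31 had all their members on the same side of 0 in the comparison below. Members on 1 protein can be pieces of 1 transcript and are not separate genes. The highest of them had a median of 2.44 times the FPKM of the lowest, so the level read for a gene depends on the piece. The Swiss-Prot matches came from 36 species, most often *Schizosaccharomyces pombe* with 48 members, and roles given here are those of the matched proteins.

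Members were transcribed at 2.67 to 5572 FPKM, with a median of 53.0 FPKM against 28.1 FPKM over all tested unigenes and 39.9 FPKM over those with a Swiss-Prot name. Together they held 2.05%, 2.26% and 2.18% of all FPKM in immature bottles 1, 2 and 3 and 2.04%, 1.87% and 1.84% in mature bottles 1, 2 and 3. The summed share was lower in every mature bottle than in every immature bottle, but in mature bottle 1 and immature bottle 1 it was nearly the same. Most of that gap lay in 4 short ubiquitin unigenes, described below. Members of at least 500 bases, 159 in number, held 1.07% ± 0.0139 of all FPKM in immature and 1.08% ± 0.0440 in mature mycelia (mean ± SD, n = 3).

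The members were set beside all tested unigenes in the comparison of mature with immature mycelia. The comparison is the log2 ratio of FPKM + 1, mature minus immature, tested with limma over all 16496 unigenes with a mean FPKM above 1. The study applied its thresholds to another test, DESeq2, so the calls here are not those of the study. Only 1 member, or 0.521%, passed the thresholds of the study, an unadjusted p of 0.05 or less and |log2 ratio| ≥ 1, against 3.01% of all tested unigenes, 1.18% higher and 1.82% lower. At an unadjusted p of 0.05 or less alone, 12 members were higher and 11 lower in mature mycelia, together 12%, where 15.4% of all tested unigenes passed. At a Benjamini-Hochberg adjusted p under 0.05 no member (0 of 192) passed, and 0.0667% of all tested unigenes did. The smallest adjusted p of a member was 0.168. All 3 mature bottles lay above all 3 immature bottles in 20 members (10.4%, against 8.69% of all tested unigenes) and below them in 22 (11.5%, against 14.2%). The median log2 ratio of the members was −0.06, against −0.07 over all tested unigenes, and 57.3% of members and 57.7% of all unigenes lay below 0. An absolute log2 ratio of at least 0.5 was seen in 9.38% of members and in 24.2% of all tested unigenes. Every member has a Swiss-Prot name, as do 7083 of the tested unigenes. Of these 7083, 1058 reached that ratio, and 60 higher and 73 lower passed the study thresholds. At an unadjusted p of 0.05 or less, 541 of them were higher and 646 lower. Their median log2 ratio was −0.03, and 54.3% lay below 0. The residual SD of log2(FPKM + 1) between bottles had a median of 0.166 in members, 0.191 in these named unigenes and 0.251 in all unigenes. Among those of at least 500 bases it was 0.161 in members and 0.199 in all unigenes. The lowest two-sided p that exact permutation of 3 and 3 bottles allows for 1 unigene is 0.1.

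**Figure D1:**
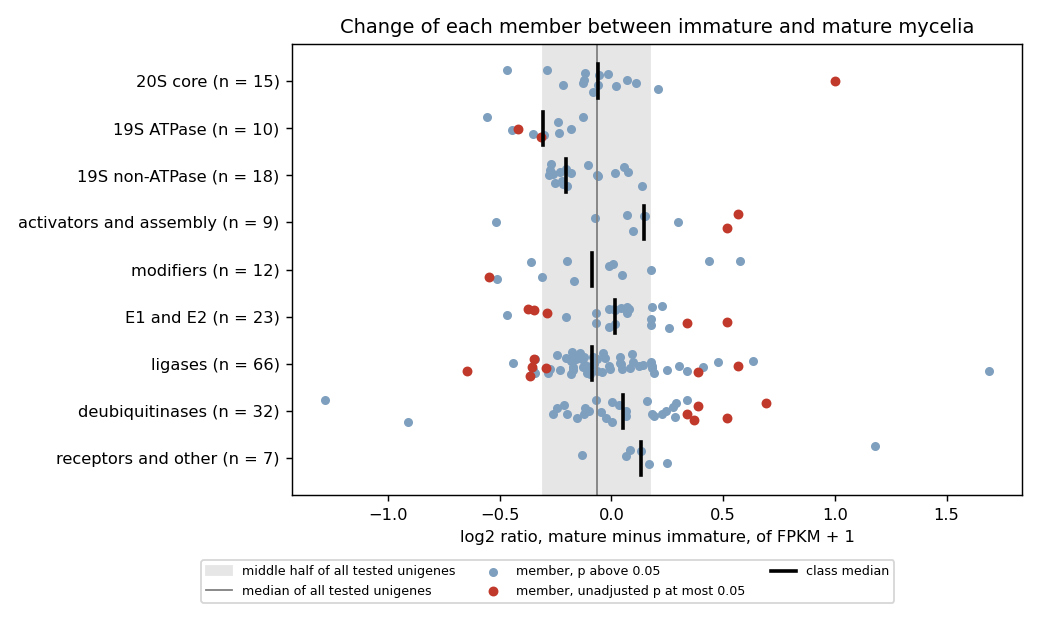
Log2 ratio of FPKM + 1 (mature minus immature) of the 192 members by role, with 1 point per unigene, red where the unadjusted limma p was at most 0.05, a black bar for the median of the class and grey for the middle 50% of all tested unigenes. The 10 ATPase subunits of the 19S cap all lie below 0 with a median of −0.31, and the red points of the deubiquitinases all lie above 0.

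The proteasome itself was represented by 43 unigenes on 32 Nr proteins: 15 of the 20S core, 10 of the ATPase ring and 18 of the other 19S subunits. Core subunits had a median level of 139 FPKM, and the 19S subunits one of 41.2 FPKM. The clearest pattern among them was a difference between bottles of 1 group. In 35 of the 43 subunits the highest of the 6 values was that of immature bottle 2, which was the highest bottle for 18.8% of all tested unigenes and for 18.1% of the 149 members outside the 20S and 19S. This held for all 10 ATPase unigenes, 14 of the 18 non-ATPase unigenes and 11 of the 15 core unigenes. Counting only the longest unigene of each Nr protein it was 28 of 32, and among subunits of at least 500 bases it was 29 of 32. Subunits of 1 complex and pieces of 1 transcript are not independent, and these counts are a description of 6 bottles without a test.

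On the log2 scale, the 19S unigenes deviated from their own mean over the 6 bottles by a median of −0.09, 0.35 and 0.08 in immature bottles 1, 2 and 3. Their median deviations in mature bottles 1, 2 and 3 were 0.00, −0.20 and −0.11. Immature bottle 2 thus stood apart from its own group by more than the group medians stood apart from each other. Over all unigenes of at least 500 bases this bottle also had the lowest score on the first principal component, −0.25 against −0.15 and −0.17 in immature bottles 1 and 3. The part of this wider difference in the proteasome values was not tested.

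**Figure D2:**
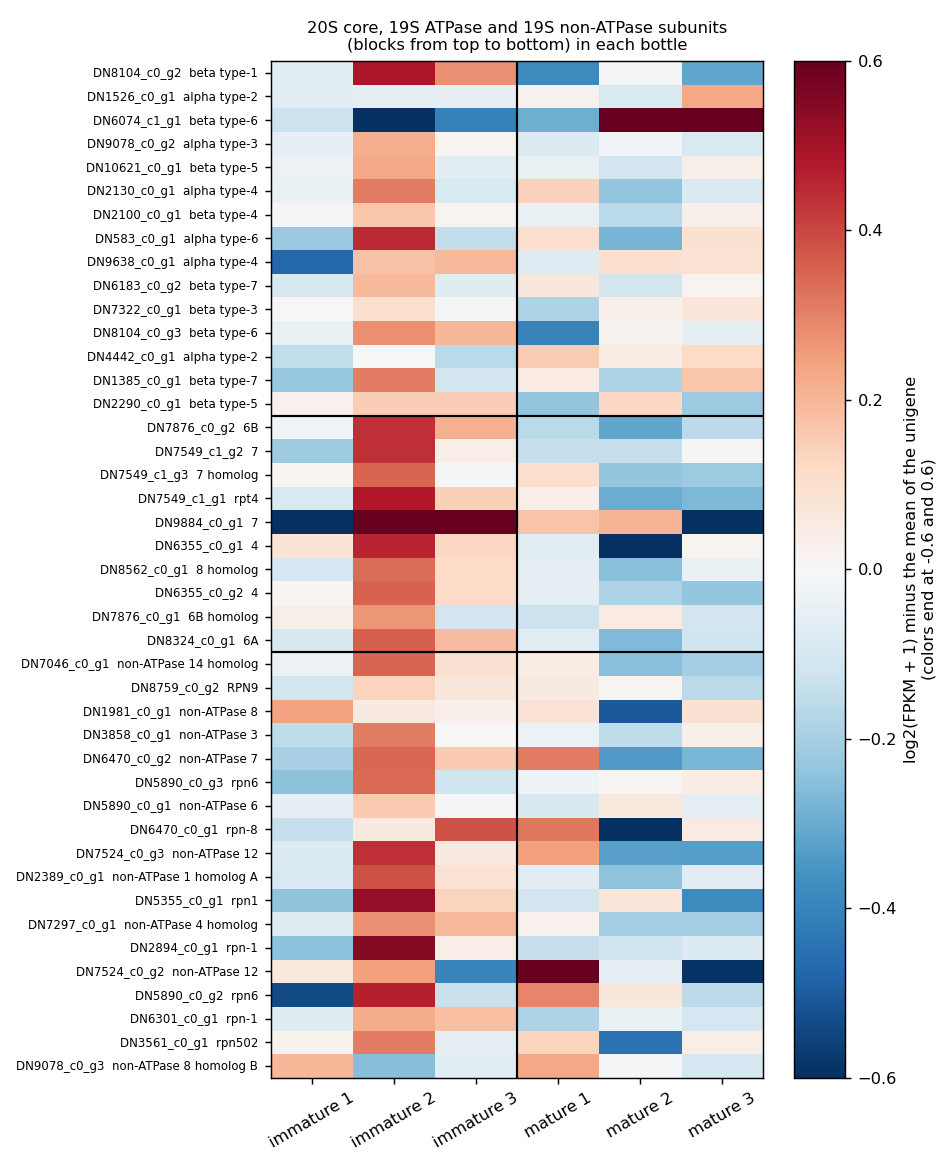
Deviation of log2(FPKM + 1) from the mean of each unigene for the 43 proteasome subunits (rows, grouped as 20S core, 19S ATPases and 19S non-ATPases) in each bottle (columns). The column of immature bottle 2 is red in nearly every row, and the 19S rows are mostly blue in mature bottles 2 and 3.

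**Figure D3:**
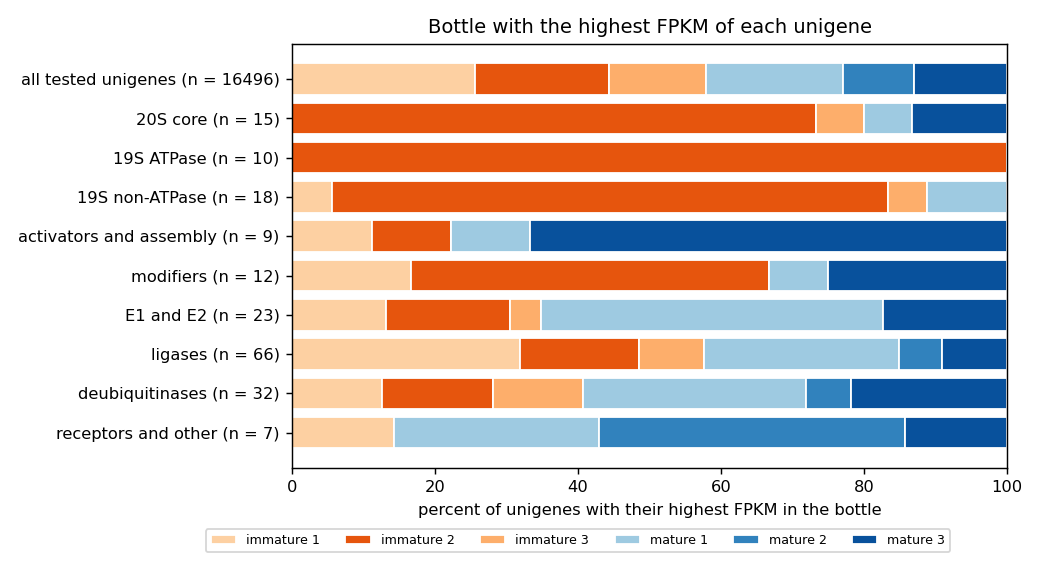
Percent of unigenes in each role class whose highest FPKM was in the given bottle, with all tested unigenes at the top (immature bottles in orange, mature bottles in blue). Immature bottle 2 takes 100% of the 19S ATPases, 77.8% of the 19S non-ATPases and 73.3% of the 20S core, but 18.8% of all tested unigenes.

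Among the 19S ATPases, all 10 unigenes had a log2 ratio below 0, from −0.56 to −0.13, with a median of −0.31, and 2 had an unadjusted p of 0.05 or less, where 9.33% of all tested unigenes were lower at that p. Without immature bottle 2 the median was −0.18, all 10 stayed below 0 and 1 kept that p. The number of ATPases past it was 5 without immature bottle 1, 1 without mature bottle 3 and 0 without immature bottle 3 or mature bottle 2. Of all tested unigenes, 16.7% passed in either direction without immature bottle 1 and 10.03% without mature bottle 3. It was 11.4% without immature bottle 3 and 10.6% without mature bottle 2. Among these fits, only the one without immature bottle 1 had a share of ATPases well above that of all tested unigenes. DN7876_c0_g2, matched to subunit 6B (Rpt3 of yeast), had 88.3, 122 and 104 FPKM in the immature bottles against 80.1, 72.1 and 80.5 FPKM in the mature ones. The groups did not overlap, and the log2 ratio was −0.42 (adjusted p = 0.253, SE 0.14). DN6355_c0_g2, matched to subunit 4 (Rpt2), had 38.0, 48.4 and 40.9 FPKM against 36.2, 33.1 and 32.0 FPKM, a log2 ratio of −0.32 (adjusted p = 0.310, SE 0.12). DN6355_c0_g1, a second piece on the same Nr protein, had 41.9, 54.8 and 43.3 FPKM against 37.7, 25.5 and 40.1 FPKM, a log2 ratio of −0.44 (adjusted p = 0.362, SE 0.21). Both pieces were highest in immature bottle 2 and did not overlap between the groups. The most abundant ATPase besides subunit 6B was DN7549_c1_g2, matched to subunit 7 (Rpt1), with 77.5, 122 and 92.4 FPKM in the immature bottles against 81.6, 81.5 and 90.4 FPKM in the mature ones. Its groups overlapped.

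Of the 18 unigenes of other 19S subunits, 14 lay below 0 with a median log2 ratio of −0.20, none (0) had an unadjusted p of 0.05 or less and none (0) had groups apart. Without immature bottle 2 their median was −0.08, the same as that of all tested unigenes in that comparison, and without mature bottle 2 it was −0.09. Without immature bottle 1, 3 of them had such a p, and without mature bottle 1 it was 1. Of all tested unigenes, 16.7% and 18.9% passed in these fits. DN7046_c0_g1, matched to subunit 14 (Rpn11), the deubiquitinase of the cap that frees ubiquitin from the substrate, had 124, 163 and 136 FPKM in the immature bottles against 132, 107 and 110.4 FPKM in the mature ones. Its log2 ratio was −0.27 (adjusted p = 0.404, SE 0.14). DN7297_c0_g1, matched to subunit 4 (Rpn10), a receptor for ubiquitin chains, had 27.9, 35.7 and 33.8 FPKM against 29.9, 25.4 and 25.3 FPKM, a log2 ratio of −0.26 (adjusted p = 0.414, SE 0.14). In both, mature bottle 1 lay within the immature range and mature bottles 2 and 3 below it. DN6301_c0_g1, a piece of the scaffold subunit Rpn1, had 22.4, 27.7 and 26.9 FPKM against 20.6, 22.9 and 21.8 FPKM (log2 ratio −0.22, adjusted p = 0.436, SE 0.13). The other Rpn1 pieces, DN5355_c0_g1 and DN2894_c0_g1, had log2 ratios of −0.28 and −0.23. DN6470_c0_g1, matched to Rpn8, the partner of Rpn11, ranged from 38.5 to 55.7 FPKM in immature and from 26.4 to 53.1 FPKM in mature mycelia. DN8759_c0_g2, matched to Rpn9, was the second most abundant non-ATPase subunit, with 112, 133 and 127 FPKM against 125, 122 and 108 FPKM. Neither of these subunits had groups apart.

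The 20S core had a median log2 ratio of −0.06 and 1 of 15 unigenes past an unadjusted p of 0.05, where 15.4% of all tested unigenes passed. The median was 0.01 without immature bottle 2 and lay between −0.15 and −0.03 when any other bottle was left out. The unigene past that p, DN6074_c1_g1, was also the only member past the thresholds of the study. It was matched to the yeast core subunit beta type-6 (Pre7), a beta subunit without a cutting site, and was 1952 bases long. Its values were 219, 122 and 181 FPKM in immature bottles 1, 2 and 3 and 196, 396 and 508 FPKM in mature bottles 1, 2 and 3. Mature bottle 1 lay within the immature range, so the groups overlapped, and immature bottle 2 was here the lowest of all bottles, as in DN9078_c0_g3 (19S) but in no other of the 43 subunits. The log2 ratio was 1.002 (adjusted p = 0.314, SE 0.40), and it ranged from 0.71 to 1.40 when 1 bottle was left out. In 5 of these 6 fits its p was above 0.05, with only mature bottle 1 left out keeping it below.

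No other core unigene had an unadjusted p of 0.05 or less. DN8104_c0_g2, matched to the yeast subunit beta type-1 (Pre3), which carries a cutting site, had 685, 1003 and 866 FPKM against 550, 712 and 577 FPKM, a log2 ratio of −0.47 (adjusted p = 0.326, SE 0.19). DN8104_c0_g3 was matched to the same Nr protein and had 50.1, 62.6 and 59.4 FPKM against 38.9, 52.4 and 49.7 FPKM, a log2 ratio of −0.29 (SE 0.15). Both were lowest in mature bottle 1. Their Swiss-Prot names differ because subunits are numbered differently in yeast and in *Dictyostelium*, and their levels differ 14.04-fold. DN8104_c0_g2 is 292 bases long, and the part of its length in this gap was not tested. DN4442_c0_g1, matched to alpha type-2, was the only core unigene that did not overlap between the groups, with 29.9, 33.1 and 29.5 FPKM against 37.0, 34.2 and 36.1 FPKM (log2 ratio 0.21, adjusted p = 0.368, SE 0.10). DN1526_c0_g1, on the same Nr protein, had 330, 333 and 334 FPKM against 352, 324 and 406 FPKM and overlapped.

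Proteasome activators and assembly factors were 9 unigenes with a median log2 ratio of 0.15, of which 2 were higher and none (0) lower in mature mycelia at an unadjusted p of 0.05 or less, where 6.09% of all tested unigenes were higher and 9.33% lower. Both lay on 1 Nr protein and were matched to activator subunit 4 (PA200 of mammals, Blm10 of yeast), a large protein that caps the 20S core in place of the 19S. This activator was represented by 5 unigenes on 2 Nr proteins. DN8402_c0_g3 had 51.1, 55.5 and 58.3 FPKM in the immature bottles against 59.2, 88.0 and 94.4 FPKM in the mature ones 1, 2 and 3, a log2 ratio of 0.52 (adjusted p = 0.285, SE 0.19). DN8402_c0_g2 had 38.6, 39.4 and 47.9 FPKM against 45.2, 69.4 and 77.2 FPKM, a log2 ratio of 0.57 (adjusted p = 0.304, SE 0.22). DN7258_c0_g2 on the same protein had 63.5, 60.5 and 59.3 FPKM against 58.6, 83.9 and 86.5 FPKM (log2 ratio 0.30, adjusted p = 0.433, SE 0.17). In these 3 unigenes mature bottles 2 and 3 lay far above the immature bottles and mature bottle 1 at or near their level. The unigenes of the second protein, DN5381_c0_g1 and DN6743_c0_g1, had log2 ratios of 0.15 each, and all 5 were highest in mature bottle 3, the highest bottle for 13.1% of all tested unigenes. Either call was lost in 5 of the 6 comparisons that left out 1 bottle and held without mature bottle 1. The median deviation of the 5 unigenes was −0.09, −0.28 and −0.09 in the immature and −0.20, 0.30 and 0.35 in the mature bottles. On the first principal component of all unigenes of at least 500 bases, mature bottle 1 also scored lower than the other mature bottles, with 0.06 against 0.24 and 0.27, and the part of this in the activator values was not tested.

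The assembly factors had ratios nearer to 0. DN6204_c0_g1, matched to the proteasome maturation protein (Ump1 of yeast), which helps to assemble the core, had 173, 196 and 184 FPKM against 175, 165 and 186 FPKM, a log2 ratio of −0.07 (SE 0.10). DN2925_c0_g1, matched to PI31, named as an inhibitor of the core in mammals, had 144, 138 and 141 FPKM against 181, 135 and 141 FPKM, high only in mature bottle 1 (log2 ratio 0.10, SE 0.13). DN6396_c0_g1, named after an archaeal nucleotidase that activates proteasomes, had 164 FPKM in immature bottle 1 and 62.4 to 84.8 FPKM in the 5 other bottles.

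The modifiers were led by ubiquitin. Its most abundant unigene, DN6851_c0_g1 with 272 bases, had 5456, 7152 and 7033 FPKM in immature bottles 1, 2 and 3 and 5284, 4635 and 3874 FPKM in mature bottles 1, 2 and 3. The groups did not overlap, although mature bottle 1 came close to immature bottle 1, and the log2 ratio was −0.51 (adjusted p = 0.427, SE 0.28). DN6851_c0_g5, a polyubiquitin, the head-to-tail form in which ubiquitin is made, had 2158, 2380 and 2164 FPKM against 1819, 1765 and 1644 FPKM, a log2 ratio of −0.36 (adjusted p = 0.355, SE 0.16). DN6851_c0_g3 had 889, 954 and 875 FPKM against 868, 682 and 656 FPKM (log2 ratio −0.31, adjusted p = 0.387, SE 0.15). DN6851_c0_g2 had 239, 250.3 and 246 FPKM against 205, 145 and 158 FPKM, a log2 ratio of −0.55 (adjusted p = 0.200, SE 0.15). All 4 were lower in every mature bottle than in any immature bottle, where 14.2% of all tested unigenes were. They were all highest in immature bottle 2, the highest bottle for 18.8% of all tested unigenes. Together they held 0.817% ± 0.0867 of all FPKM in immature and 0.588% ± 0.0770 in mature mycelia (mean ± SD, n = 3).

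Of these 4 unigenes, only DN6851_c0_g2 had an unadjusted p of 0.05 or less, which it kept in all 6 comparisons that left out 1 bottle, with log2 ratios of −0.69 to −0.44. All 4 are shorter than 500 bases and come from 1 assembly component. Ubiquitin repeats are nearly identical, so fragments can be shared out between them and the 4 values are not 4 separate measurements. Ubiquitin also forms part of fusions with ribosomal proteins, which the choice of members left out. DN3104_c0_g1, a longer unigene also named polyubiquitin but matched to another Nr protein, had 68.8, 95.3 and 76.9 FPKM against 80.8, 81.9 and 77.6 FPKM and a log2 ratio of 0.01 (SE 0.14), with overlapping groups. The other 7 modifiers, among them SUMO, Urm1 and the autophagy protein Atg12, had log2 ratios from −0.20 to 0.57, and their groups overlapped.

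The enzymes that start conjugation, 8 E1 and 15 E2 unigenes, moved in both directions, with a median log2 ratio of 0.02. At an unadjusted p of 0.05 or less, 2 were higher and 3 were lower, where 6.09% of all tested unigenes were higher and 9.33% lower. Without immature bottle 1 it was 5 higher and 2 lower, where 16.7% of all tested unigenes passed in either direction. It was 3 higher and 2 lower without immature bottle 2 (13.6% of all tested unigenes). Without mature bottle 3 it was 2 higher and 1 lower (10.03%). Leaving out any other bottle did not change the counts. The median ranged from −0.03 to 0.08 when 1 bottle was left out. The lowest p belonged to DN9237_c0_g1, matched to Uba2 of *S. pombe*, the catalytic subunit of the SUMO-activating enzyme. It had 47.7, 45.8 and 44.2 FPKM in the immature bottles against 37.0, 35.0 and 33.8 FPKM in the mature ones. The groups were well apart, with a log2 ratio of −0.37 (adjusted p = 0.190, SE 0.09). Its partner in the SUMO E1, DN7906_c0_g1, overlapped between the groups, with 65.7, 45.2 and 43.7 FPKM against 50.2, 63.2 and 70.8 FPKM and a log2 ratio of 0.26 (SE 0.21). The SUMO-conjugating enzyme Ubc9, DN4493_c0_g1, had a log2 ratio of 0.07 (SE 0.11). The SUMO ligase pli1, DN9541_c0_g1, had 82.0, 75.8 and 70.9 FPKM against 68.6, 64.4 and 69.3 FPKM, groups that did not overlap, and a log2 ratio of −0.17 (adjusted p = 0.428, SE 0.10). Of the 7 SUMO unigenes, 1 had an unadjusted p of 0.05 or less, where 15.4% of all tested unigenes had.

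The ubiquitin E1 was represented by neighboring unigenes of 1 assembly component that differed. DN9139_c0_g2, 4712 bases long, had 108, 94.9 and 93.5 FPKM against 94.9, 89.6 and 117 FPKM, a log2 ratio of 0.02 (SE 0.13), and its groups overlapped. DN9139_c0_g1, matched to a mammalian ubiquitin E1 and to another Nr protein, had 50.8, 43.8 and 45.4 FPKM against 63.6, 57.6 and 56.7 FPKM, without overlap, and a log2 ratio of 0.34 (adjusted p = 0.229, SE 0.10). The difference between these unigenes was not tested. The NEDD8 E1 had its regulatory subunit DN5867_c0_g1 at 65.8, 65.3 and 63.1 FPKM against 72.9, 73.5 and 73.6 FPKM, apart but close (log2 ratio 0.18, adjusted p = 0.348, SE 0.08). Its catalytic subunit, on 2 unigenes, had log2 ratios of −0.47 and −0.07 with overlapping groups.

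Among the E2 enzymes, DN5871_c0_g1, matched to E2 number 25 of *Arabidopsis*, had 87.7, 111 and 80.1 FPKM in the immature bottles against 142, 119 and 136 FPKM in the mature ones. No bottle overlapped, and the log2 ratio was 0.52 (adjusted p = 0.216, SE 0.15). DN5595_c0_g1 and DN8619_c0_g1, matched to E2 32 and E2 S, had log2 ratios of −0.29 (adjusted p = 0.270, SE 0.10) and −0.35 (adjusted p = 0.284, SE 0.13). The most abundant E2 unigenes had ratios nearer to 0. DN4285_c0_g1, matched to E2 variant 1, a partner of the chain-building E2 N that lacks a catalytic cysteine, had 850.0, 743 and 713 FPKM against 866, 718 and 749 FPKM (log2 ratio 0.02, SE 0.14). DN5410_c0_g1, matched to E2 30, had 828, 852 and 796 FPKM against 1029, 878 and 906 FPKM (log2 ratio 0.18, adjusted p = 0.538, SE 0.13). Mature bottle 1 was the highest bottle for 9 of the 15 E2 unigenes, and for 19.2% of all tested unigenes.

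Ligases and their regulators formed the largest class, with 66 unigenes, a median log2 ratio of −0.09, 2 higher and 5 lower at an unadjusted p of 0.05 or less, and 4 higher and 10 lower without overlap. Over all tested unigenes, 15.4% had such a p and 22.9% had groups apart, so neither share of the 66 was above the background. Without immature bottle 2, 2 were higher and 10 lower at that p, where 13.6% of all tested unigenes passed in either direction. In that fit the share of the 66 was above the background. Of the 39 unigenes named as E3 ligases, 4 were lower and none (0) higher at that p, near the 9.33% of all tested unigenes that were lower. A narrow spread was seen in DN8879_c0_g1, matched to Rsp5 of *Emericella nidulans*, a HECT ligase that in yeast sorts transporters of the plasma membrane. It had 96.1, 95.5 and 94.4 FPKM in the immature bottles against 78.5, 77.1 and 77.6 FPKM in the mature ones, a log2 ratio of −0.29 (adjusted p = 0.199, SE 0.08). Within either group the bottles lay less than 2 FPKM apart. DN7985_c0_g1, matched to Ufd2, which in yeast lengthens ubiquitin chains as an E4 factor, had 46.3, 44.1 and 43.4 FPKM against 34.0, 33.9 and 36.1 FPKM, again clearly apart, and a log2 ratio of −0.35 (adjusted p = 0.190, SE 0.09). DN7985_c0_g2, a second piece on that protein, had a log2 ratio of −0.17 (SE 0.11) with overlapping groups.

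DN8450_c0_g1, matched to Hel2, which in yeast marks stalled ribosomes, had 47.8, 42.4 and 43.9 FPKM against 35.9, 36.0 and 32.9 FPKM, a log2 ratio of −0.35 (adjusted p = 0.214, SE 0.10). DN6623_c0_g1, named after a mammalian TRIM protein, was scarce, with 8.10, 7.67 and 9.76 FPKM against 4.58, 4.75 and 5.91 FPKM (log2 ratio −0.65, adjusted p = 0.231, SE 0.20). DN1576_c0_g1, named after RNF216, had a log2 ratio of −0.36 (adjusted p = 0.298, SE 0.14). None of these 3 overlapped between the groups. The large ligase of the Tom1 family lay on 4 unigenes of 1 Nr protein with log2 ratios of −0.34 to −0.16, of which none (0) had an unadjusted p of 0.05 or less. DN14_c0_g1, matched to the F-box protein sconB, which in *E. nidulans* controls sulfur uptake, had 43.9, 40.3 and 43.4 FPKM against 33.7, 37.5 and 37.2 FPKM (log2 ratio −0.23, adjusted p = 0.331, SE 0.10).

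**Figure D4:**
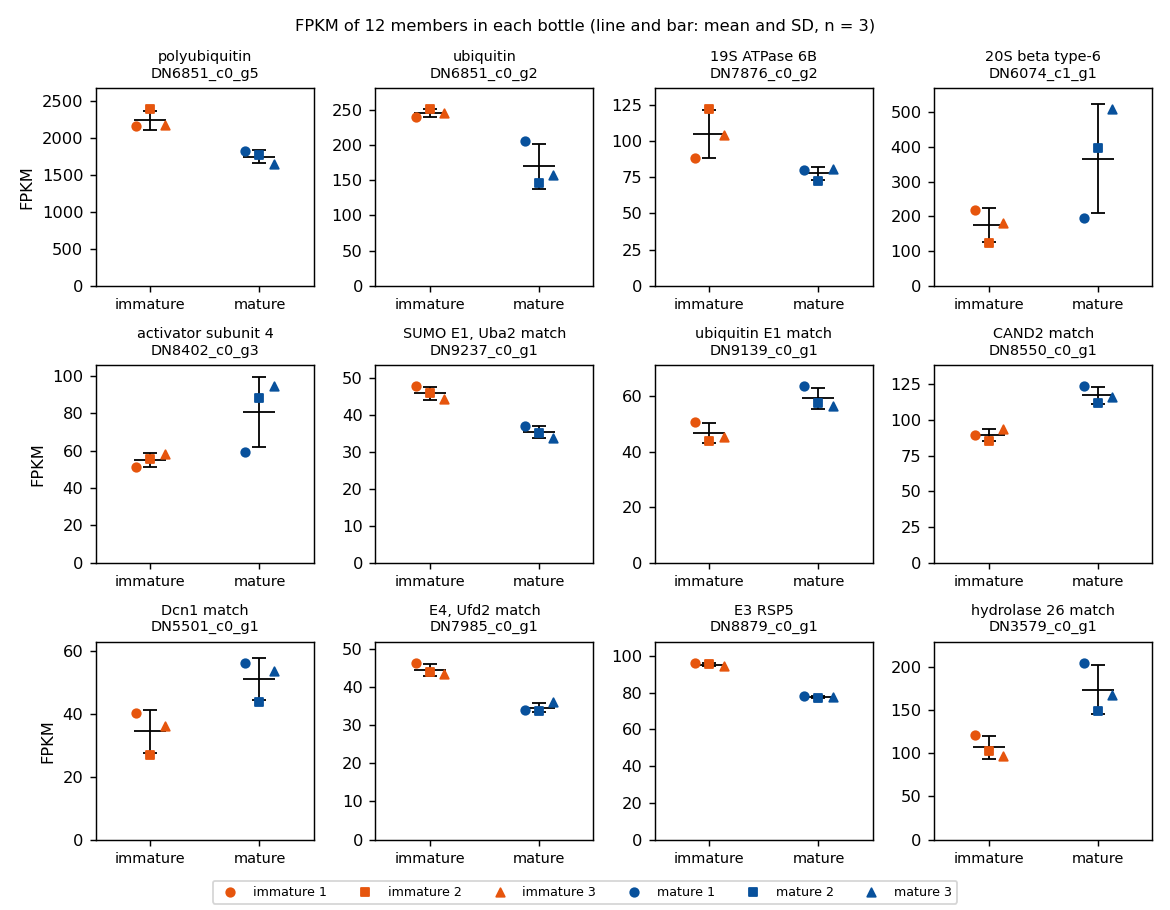
FPKM of 12 members in each bottle (symbols 1, 2 and 3 within each group, line and bar for mean and SD, n = 3, axes from 0). The ubiquitin, Uba2, Ufd2 and RSP5 panels have all mature bottles below the immature bottles, while mature bottle 1 stays at the immature level in the panels of beta type-6 and activator subunit 4.

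Of the 66 unigenes of this class, 2 were higher in mature mycelia at an unadjusted p of 0.05 or less, where 6.09% of all tested unigenes were. Both were matched to proteins of the cycle by which cullins are switched on and off. They were grouped after the calls were seen, and a shared change of this cycle was not tested. DN5501_c0_g1, matched to Dcn1, which helps to attach NEDD8 to cullins, had 40.4, 26.9 and 36.2 FPKM in the immature bottles against 56.1, 43.6 and 53.7 FPKM in the mature ones, without overlap, a log2 ratio of 0.57 (adjusted p = 0.250, SE 0.18). DN8550_c0_g1, matched to CAND2, of the family that exchanges the substrate receptors of cullins, had 89.7, 85.2 and 93.8 FPKM against 124, 112 and 116 FPKM, well apart, and a log2 ratio of 0.39 (adjusted p = 0.177, SE 0.09). The 3 other unigenes on the same CAND protein had log2 ratios of 0.25, 0.08 and −0.14, with overlapping groups. The difference between the pieces was not tested. All 4 were highest in mature bottle 1, the highest bottle for 19.2% of all tested unigenes.

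None (0) of the 5 cullin unigenes had an unadjusted p of 0.05 or less. DN8425_c0_g1, matched to cullin-4A, had 282, 467 and 390 FPKM against 417, 270 and 254 FPKM, spread widely in both groups (log2 ratio −0.28, adjusted p = 0.630, SE 0.27). The 3 cullin-1 unigenes, DN8817_c0_g2, DN8817_c0_g4 and DN8817_c0_g3, had log2 ratios of −0.18, −0.13 and −0.09, and cullin-3, DN7286_c0_g1, one of 0.13 (adjusted p = 0.588, SE 0.10). DN211_c0_g1, matched to sconC, the Skp1 adaptor that joins F-box proteins to cullin-1, was the most abundant unigene of the class, with 750.0, 648 and 563 FPKM against 720.3, 652 and 709 FPKM (log2 ratio 0.09, SE 0.15). The groups of all these unigenes overlapped. The 12 F-box unigenes had a median log2 ratio of −0.04 (range −0.28 to 0.63), and none (0) had an unadjusted p of 0.05 or less.

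Among the deubiquitinases, 5 of 32 unigenes, on 4 Nr proteins, were higher in mature mycelia at an unadjusted p of 0.05 or less and none (0) lower, where 6.09% of all tested unigenes were higher and 9.33% lower. Without overlap, 8 were higher and 2 lower, where 8.69% of all tested unigenes were higher and 14.2% lower. The 8 include 3 unigenes on 1 Nr protein, described below. The median log2 ratio of the class was 0.05, against −0.07 over all tested unigenes. The count of 5 was not stable. It was 2 without immature bottle 3, and 3 when immature bottle 2 or either of mature bottles 1 and 3 was left out. With libraries scaled to a common sum or with trend=FALSE it was 2, with quantile normalization 8, and with 1 unigene for each Nr protein 1 of 19, where the median was 0.00. DN3906_c0_g1, DN9258_c1_g1 and DN3318_c0_g1 kept that p in 1 of the 6 comparisons that left out 1 bottle. DN3579_c0_g1, matched to hydrolase 26 of rice, had 122, 102 and 96.5 FPKM in the immature bottles against 205, 150 and 168 FPKM in the mature ones, a log2 ratio of 0.69 (adjusted p = 0.168, SE 0.15). It had the smallest p of all members and is 320 bases long. The other unigenes on that Nr protein were matched to USP48 of rodents. DN3906_c0_g1 had 85.1, 61.8 and 71.8 FPKM against 109, 86.6 and 90.5 FPKM (log2 ratio 0.39, adjusted p = 0.315, SE 0.16). DN4270_c0_g1, the most abundant, had 216, 181 and 187 FPKM against 261, 224 and 226 FPKM (log2 ratio 0.28, adjusted p = 0.328, SE 0.12). None of the 3 overlapped between the groups and all were highest in mature bottle 1, the highest bottle for 19.2% of all tested unigenes.

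DN7732_c0_g1, matched to Ubp14 of *S. pombe*, which in yeast takes apart free ubiquitin chains, had 29.9, 28.7 and 29.5 FPKM against 41.1, 37.2 and 36.6 FPKM, a log2 ratio of 0.37 (adjusted p = 0.195, SE 0.10). DN9258_c1_g1, named after USP11, had 28.1, 27.7 and 27.4 FPKM against 37.1, 31.6 and 55.3 FPKM, with a wide spread only in mature mycelia (log2 ratio 0.52, adjusted p = 0.317, SE 0.21). DN3318_c0_g1, named after USP27, had a log2 ratio of 0.34 (adjusted p = 0.319, SE 0.14). The groups of all 3 were apart. The 3 unigenes of Ubp21 lay on 1 Nr protein and had log2 ratios of 0.18 to 0.29 with p above 0.05. DN3448_c0_g1, matched to the hydrolase L3 and the most abundant deubiquitinase, had 249, 237 and 276 FPKM against 246, 241 and 296 FPKM (log2 ratio 0.04, SE 0.12). The extreme values of the class were short unigenes near the floor: DN989_c0_g1, with 261 bases, was listed at 0 in 4 of 6 libraries, and DN5831_c0_g1 ranged from 0.95 to 13.8 FPKM.

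Receptors that carry ubiquitinated proteins and other members, 7 unigenes, had none (0) at an unadjusted p of 0.05 or less. DN6449_c0_g2, matched to Rad23, a shuttle to the proteasome, had 302, 237 and 242 FPKM against 295, 321 and 306 FPKM (log2 ratio 0.25, adjusted p = 0.398, SE 0.13). DN8717_c2_g1, matched to Dsk2, another shuttle, had 108, 116 and 111 FPKM against 113, 121 and 121 FPKM. Both overlapped between the groups. DN5085_c0_g2, matched to Ufd1, a partner of the segregase Cdc48, had 43.6, 37.9 and 41.9 FPKM against 45.7, 46.0 and 46.8 FPKM, apart by little (log2 ratio 0.17, adjusted p = 0.443, SE 0.10). DN9605_c0_g1, named after the receptor ADRM1 (Rpn13), was 284 bases long and varied from 2.21 to 18.8 FPKM, with a log2 ratio of 1.18 (adjusted p = 0.435, SE 0.66).

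Unigenes whose names lack the words used for the choice but hold other words tied to the pathway were followed as well. Of 28 such unigenes, among them 6 of the COP9 signalosome, which removes NEDD8 from cullins, 6 of the anaphase-promoting complex, a ligase of the cell cycle, and 9 RING proteins, 1 was higher and 1 lower at an unadjusted p of 0.05 or less. Over all tested unigenes, 6.09% were higher and 9.33% lower at that p. The median log2 ratio of the 28 was −0.05, against −0.07 over all tested unigenes. The higher one was DN4281_c0_g1, matched to the vacuolar import and degradation protein 27, with 34.5, 39.4 and 38.3 FPKM against 47.5, 44.7 and 42.7 FPKM (log2 ratio 0.26, adjusted p = 0.304, SE 0.10). It was taken in by the words of that name alone, and whether it belongs to the ubiquitin system was not checked. The lower one was DN6699_c0_g2, matched to subunit 11 of the anaphase-promoting complex, with 6.08, 6.51 and 4.8 FPKM against 3.52, 4.04 and 2.13 FPKM (log2 ratio −0.70, adjusted p = 0.317, SE 0.28). The 6 unigenes of the COP9 signalosome had log2 ratios of −0.13 to 0.02, and DN7876_c1_g1, matched to the ATPase Cdc48, had one of −0.07.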

How the data were processed

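Mycelia from 3 immature and 3 mature bottles were sequenced by the authors as 6 libraries. The authors trimmed reads with cutadapt, assembled them with Trinity, clustered contigs with TGICL and estimated abundance with RSEM. The deposited values are FPKM with 2 decimals per unigene and library, and read counts per unigene were not used here. The study gives clean reads per library, but the depth behind a single value is unknown here. FPKM summed to 1206300 to 1238510 per library. The smallest values above 0 near 235 bases were 4.75 to 7.58 FPKM, and near 292 bases 1.56 to 2.17 FPKM, so short unigenes rest on few fragments. GEO lists 1 record per group, and the 3 columns of each were taken as bottles 1 to 3 by their names.

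Mature and immature bottles were compared with limma 3.58.1 in R 4.3.3 (a two-sided moderated test, lmFit then eBayes, trend=TRUE, no robust prior) on log2(FPKM + 1) for unigenes with a mean FPKM above 1, without covariates. Benjamini-Hochberg adjustment ran over all 16496 unigenes. A pseudocount of 1 shrinks the ratios of low unigenes. Values per bottle were given for members past the thresholds of the study or an adjusted p of 0.05, the 3 with the smallest p and the 2 with the highest FPKM in each role class, members of at least 500 bases without overlap and |log2 ratio| ≥ 0.5, and polyubiquitin, E1, cullins, Skp1, Rpn8 and Rpn11. Other members were named after their values were seen. Role classes, members and lists were chosen with earlier results of these data known. The fit was tested on simulated data. Alternatives were pseudocounts of 0.1 and 5, other filters and scalings, other variance priors, a replicate block, a length limit, 1 unigene per Nr protein, and leaving out each bottle in turn. Python 3.11.15 with matplotlib 3.10.9 drew the figures.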

Additional observations from a re-analysis of the deposited data

How the results depend on the processing

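No member passed an adjusted p of 0.05 under any alternative with limma (0 in each), while 13 to 36 passed an unadjusted p of 0.05. The study-threshold count of 1 fell to 0 with a pseudocount of 5, without the filter, with libraries scaled to a common sum, with quantile normalization and with trend=FALSE, and ranged from 0 to 1 when 1 bottle was left out (0 without immature bottle 2, immature bottle 3 or mature bottle 2). The 1 member counted was DN6074_c1_g1 only without mature bottle 1. It was DN9605_c0_g1 without immature bottle 1 and DN5831_c0_g1 without mature bottle 3. The count of members at an unadjusted p of 0.05 or less was 23 with all bottles, where 15.4% of all tested unigenes passed. It was 36 without immature bottle 1 (16.7% of all tested unigenes), 13 without immature bottle 3 (11.4%) and 15 without mature bottle 3 (10.03%). The share over all tested unigenes thus moved in the same direction as the count. In the fits that left out 1 bottle the count ranged from 13 to 36. Of the 23, 10 kept that p in all 6 of these fits and in every alternative that held them, 5 of them higher in mature mycelia: DN3579_c0_g1, DN8550_c0_g1, DN7732_c0_g1, DN5871_c0_g1 and DN9139_c0_g1, and lower DN9237_c0_g1, DN7985_c0_g1, DN8879_c0_g1, DN6851_c0_g2 and DN8450_c0_g1. The length limit or the choice of 1 unigene per Nr protein left out DN3579_c0_g1, DN8550_c0_g1 and DN6851_c0_g2. Another 7 kept it in 1 of the 6 fits. Over 15 alternatives of the 50 members described, 659 of 750 log2 ratios kept their sign and side of the threshold, 49 lost and 22 gained a p of 0.05 or less, and 20 changed sign; the causes were not tested.

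The sign changes were in 9 members. With libraries scaled to a common sum DN3104_c0_g1, DN4285_c0_g1 and DN9139_c0_g2 were at −0.0115, −0.00414 and −0.00147, and with quantile normalization DN4285_c0_g1 was at −0.0427. Leaving out 1 bottle gave −0.406 to 0.0828 for DN6470_c0_g1, −0.00796 to 0.199 for DN211_c0_g1, −0.0566 to 0.0976 for DN3448_c0_g1, −0.0957 to 0.137 for DN3104_c0_g1, −0.208 to 0.0744 for DN8817_c0_g3, −0.0639 to 0.0904 for DN4285_c0_g1, −0.0949 to 0.0953 for DN9139_c0_g2, −0.132 to 0.00409 for DN8759_c0_g2 and −0.0315 to 0.179 for DN2925_c0_g1.

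The replicate numbers did not pair the bottles: same-numbered bottles had correlations of −0.09, −0.04 and −0.01 between their deviations. With the replicate block 22 members had an unadjusted p of 0.05 or less, 1 passed the thresholds of the study (DN9605_c0_g1, not DN6074_c1_g1) and 0 an adjusted p of 0.05. None (0) of the 19S ATPases had an unadjusted p of 0.05 or less with the block, where 12.4% of all tested unigenes had.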
